A study of Xenopus laevis with 4 samples.

Results

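The animal cap was set against the dorsal marginal zone of the Xenopus laevis gastrula, with 1 array for each explant. Of 15491 probe sets on the arrays, control probe sets left out, 8118 entered because their signal reached 147 units, the median of all 4 arrays, in the higher of these 2 explants. The other 7373 did not enter. Among named genes, 4647 of 7531 had a probe set that entered. The study profiled 4 explants dissected at stage 10, the onset of gastrulation, to build a regional map of RNA levels. The animal cap is the ectoderm around the animal pole and the dorsal marginal zone, or dorsal zone, is the dorsal sector of the equatorial belt, which holds the Spemann organizer. The other explants, the ventral marginal zone and the vegetal explant, are given only as levels beside the genes described. All 4 samples came from embryos of one stage with no treatment named in the labels, which leave the number of embryos and dissections per explant unstated.

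At this stage the cells of the cap are ectoderm that can still become epidermis or neural tissue. BMP signalling directs ectoderm to epidermis by way of homeobox, AP-2, forkhead and grainyhead-like transcription factors, which in turn control keratins and junction proteins. In the marginal zone, nodal, FGF and Wnt signals take part in forming and patterning mesoderm. The dorsal sector of this zone secretes antagonists of BMP, Wnt and nodal ligands that pattern the neighbouring tissues. Xenopus laevis is allotetraploid, so many genes have a copy on the long (.L) and on the short (.S) chromosome set.

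Values are signals in scaled intensity units, and a floor of 24.7 units, the 20th percentile of all 4 arrays, replaced lower ones. A fold against a value at the floor is a lower bound, written "at least". A probe set at the floor in 1 of these explants could enter only through the other. The entry rule alone therefore puts such a probe set at least 5.96-fold apart. Signals under 30 units are so near the floor that they are not shown to be above background, and folds against them are also written "at least". With 1 array a side no difference has a replicate check, so none was tested and none has an error. These are bulk explants, so that fewer cells of a type and less RNA per cell cannot be told apart.

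A 2-fold or larger difference was found for 476 probe sets, 5.86% of those that entered. In the animal cap 183 were higher (2.25%) and 293 were lower (3.61%). The ratio of lower to higher counts grew with the size of the difference: at 4-fold the counts were 40 higher (0.493%) and 164 lower (2.02%), and at 8-fold they were 9 higher (0.111%) and 103 lower (1.27%). At 16-fold a single probe set was higher in the cap (0.0123%) and 55 were lower (0.678%). Only 4 of the 183 lay at the floor in the dorsal marginal zone, whereas 69 of the 293 lay at the floor in the cap. Of the probe sets that differed, 71 of the 183 and 101 of the 293 had no single gene symbol and are not named. Of the 4647 genes, 256 differed 2-fold (5.51%): 95 were higher in the cap (2.04%) and 161 lower (3.46%). The median difference over all entered genes was 0.02 on the log2 scale and the median absolute difference over probe sets was 0.21.

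**Figure D1:**
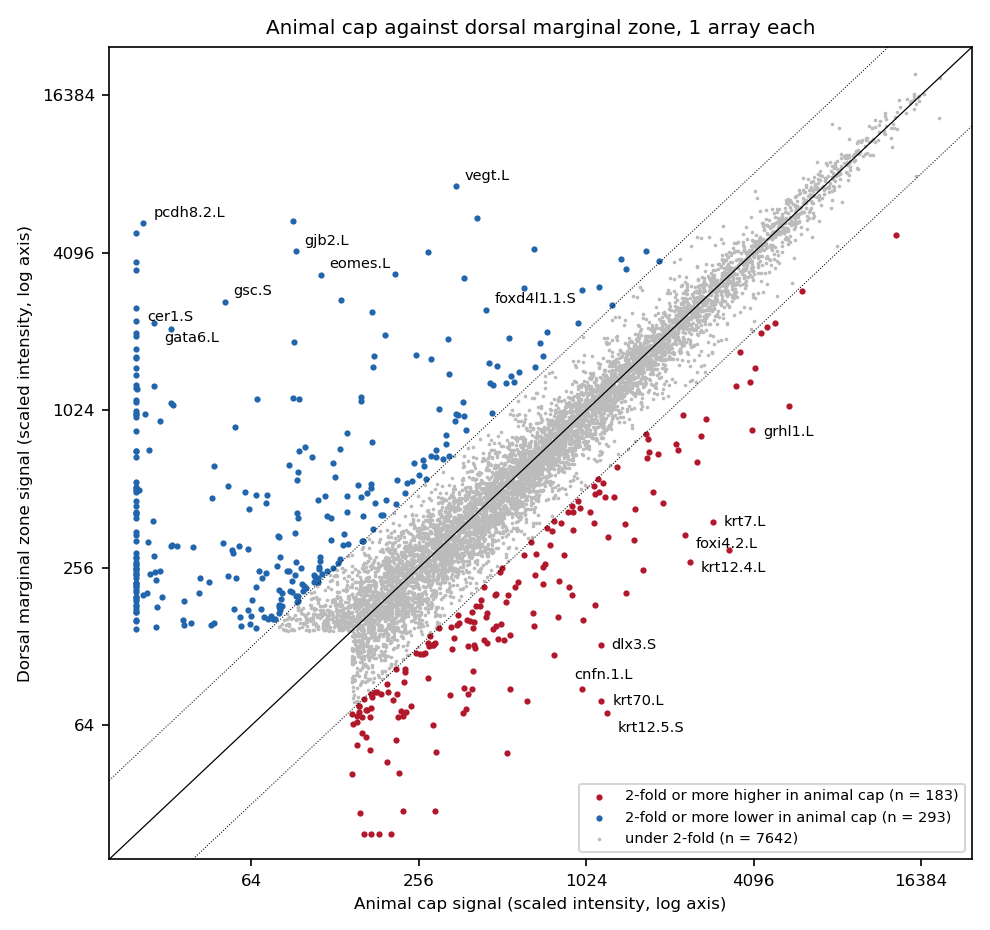
Signal of the 8118 entered probe sets in the animal cap (horizontal) and the dorsal marginal zone (vertical), both in scaled intensity units on log axes, 1 array each, with dotted lines at 2-fold. Most points lie along the diagonal, 69 of the blue points stand in a column at the floor of the cap axis, and the red points lie closer to the diagonal than the blue ones.

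The probe sets of each direction also differed in how much signal the opposite explant kept. The 183 cap-high probe sets had a median of 480 units in the animal cap and 155 in the dorsal marginal zone, and 98 of them (53.6%) still reached 147 units in the dorsal marginal zone. The 293 cap-low probe sets had a median of 80.7 units in the animal cap and 417 in the dorsal marginal zone, and 79 of them (27.0%) reached 147 units in the cap. Both sets were picked by these same 2 values, so the shares describe the picked probe sets and not the RNAs of either explant at large. Over all 8118 entered probe sets, 93.5% reached 147 units in the cap and 95.6% in the dorsal marginal zone. In the ventral marginal zone the medians were 246 units for the cap-high set and 282 for the cap-low set, and in the vegetal explant they were 89.9 for the cap-high set and 474 for the cap-low set. Differences of 2-fold were more common among dim probe sets: ranked by their higher signal into 3 equal groups, 7.58% of the dimmest differed 2-fold, against 4.47% of the brightest.

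**Figure D2:**
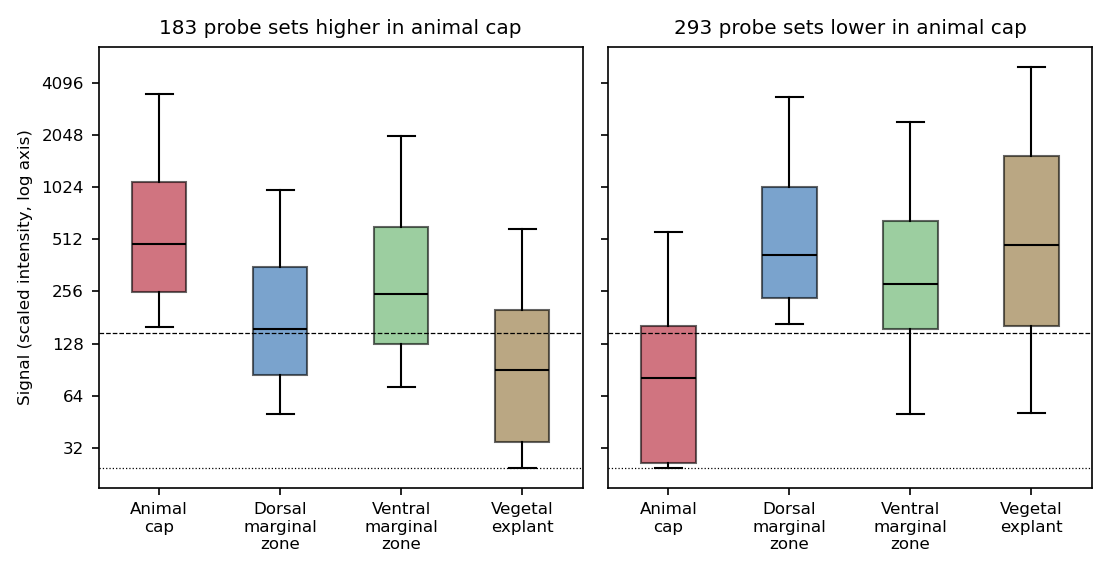
Signals on all 4 arrays (scaled intensity, log axis) of the 183 probe sets higher in the animal cap and the 293 lower in it; boxes run between the quartiles with the median inside, whiskers reach the 5th and 95th percentiles, and lines mark the floor (dotted) and the entry limit (dashed). The cap-low set lies lowest in the animal cap, with a median of 80.7, and the cap-high set lies lowest in the vegetal explant, with a median of 89.9.

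Marker genes were set against the labels of both explants. The 12 ectoderm marker genes summed to 24855 units in the animal cap and 6319 in the dorsal marginal zone, all 12 reaching 147 units in the cap. The 11 dorsal mesendoderm markers summed to 334 units in the animal cap, with 7 at the floor, and to 12430 units in the dorsal marginal zone. The 7 pan-mesoderm markers summed to 364 units in the cap, with 3 at the floor, and to 6423 in the dorsal marginal zone. The markers were chosen with earlier results of these data known, and many are among the called genes below. They are therefore no independent check of the labels. Of the 12 ectoderm markers 6 reached 147 units in the dorsal marginal zone, where krt70.S gave 3223 of the 6319 units. In these sums a gene counts as the mean log2 signal over all its probe sets, entered or not. Endoderm markers, 8 genes, summed to 209 units in the cap, with 4 at the floor, and to 5054 in the dorsal marginal zone, against 22437 in the vegetal explant. The 6 ventral markers summed to 416 units in the cap and 184 in the dorsal marginal zone, and 5 germ plasm markers to 201 in the cap against 586 in the dorsal marginal zone. What part admixed tissue had in any difference below was not tested. The ratio of 3' to 5' signal, a sign of RNA quality, was 0.679 in the cap and 0.705 in the dorsal marginal zone for actin, and 4.45 in the cap against 4.30 in the dorsal marginal zone for glyceraldehyde phosphate dehydrogenase.

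Transcription factors of the epidermis were higher in the animal cap. The list of epidermal and ectodermal factors held 25 genes on the array, of which 18 entered, and 13 were 2-fold or more higher in the cap and 0 lower, against 2.04% and 3.46% of all entered genes. Their median log2 difference was 1.91, or 1.52 over all 25. This list, like those below, was chosen with earlier results of these data known, so its share is no independent support. The homeobox gene dlx3 had the largest difference: dlx3.S had 1158 units in the animal cap and 130 in the dorsal marginal zone, 8.89-fold higher in the cap, and dlx3.L had 788 in the cap and 118 in the dorsal zone, 6.65-fold higher. Both copies lay between these values in the ventral marginal zone, at 607 and 404 units. The related dlx6.S, with 521 units in the cap and 136 in the dorsal marginal zone, and dlx5.L, with 215 in the cap and 68.8 in the dorsal zone, were 3.84-fold and 3.13-fold higher.

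The forkhead gene foxi4.2, an activator of ectodermal genes, had 2330 units in the animal cap and 342 in the dorsal marginal zone for foxi4.2.L (6.82-fold higher), with 910 in the ventral marginal zone and 529 in the vegetal explant. These foxi4.2.L values come from 1 of its 2 probe sets, as the other did not enter. The mean log2 signal over both stands for 280 units in the cap and 99.8 in the dorsal zone. The copy foxi4.2.S had 1231 units in the cap and 336 in the dorsal zone, 3.67-fold higher in the cap. The Krüppel-like gene klf17.L was 6.71-fold higher, with 1527 units in the cap against 227 in the dorsal zone, and its 2 probe sets gave 6.94-fold and 6.50-fold. Unlike dlx3, klf17.L and foxi4.2.L were also well above the entry limit in the vegetal explant, where klf17.L had 964 units. The grainyhead-like factors, which drive barrier and keratin genes of surface epithelia, were bright in both explants. Thus grhl1.L had 4060 units in the cap and 863 in the dorsal marginal zone (4.71-fold higher), and grhl3.L had 1934 in the cap and 454 in the dorsal zone (4.26-fold higher). The AP-2 gene tfap2a.L followed with 2569 units in the cap and 651 in the dorsal zone (3.95-fold higher), and the ETS factor elf1.L with 2772 in the cap and 945 in the dorsal zone (2.93-fold higher). All of these had an intermediate signal in the ventral marginal zone, 2513 units for grhl1.L, 1277 for grhl3.L, 1884 for tfap2a.L and 2087 for elf1.L. The 5 entered members under 2-fold were klf2.S, msx1.L, gata2.L, hes4.L and hes4.S, at 0.19 to 0.98 on the log2 scale.

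**Figure D3:**
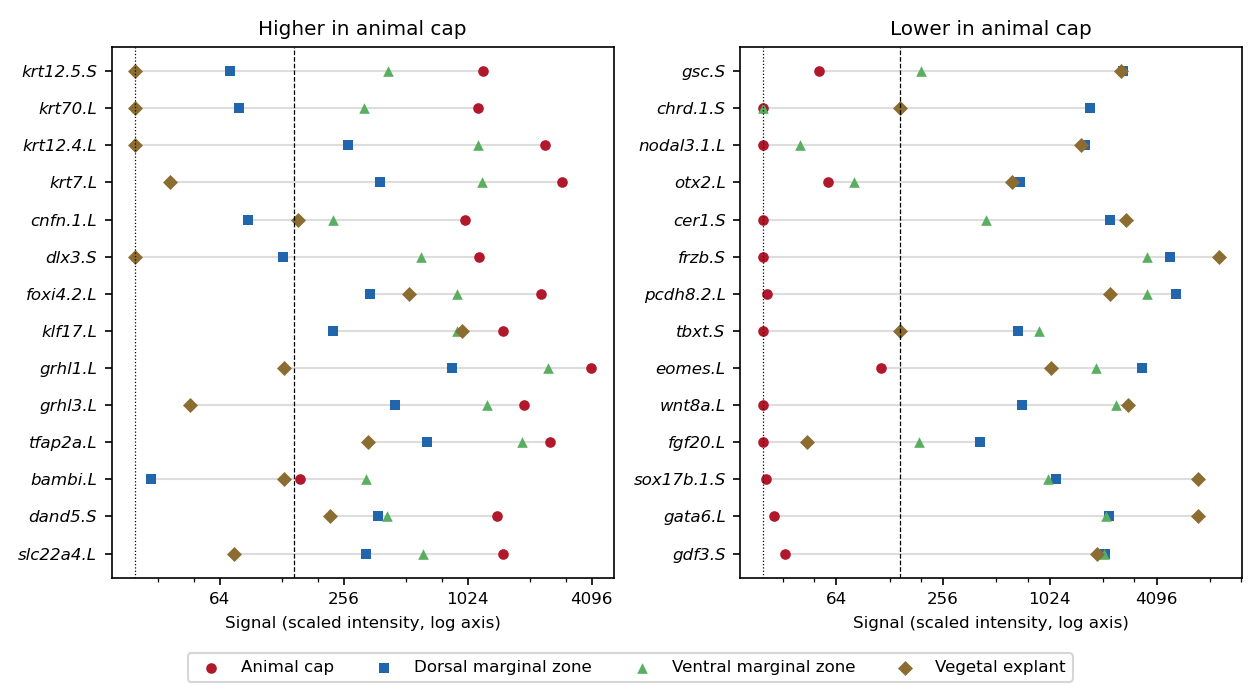
Signal (scaled intensity, log axis) of 28 named genes on each of the 4 arrays, 14 higher and 14 lower in the animal cap than in the dorsal marginal zone; the dotted line is the floor and the dashed line the entry limit. Epidermal genes such as krt12.5.S are highest in the cap, intermediate in the ventral and lower in the dorsal marginal zone, where grhl1.L still has 863 units. By contrast gsc.S, nodal3.1.L and otx2.L are high in the dorsal marginal zone and the vegetal explant and low in the cap.

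Keratins gave the largest cap-high differences. The type I keratin krt12.5.S had 1220 units in the animal cap and 71.4 in the dorsal marginal zone, 17.1-fold higher in the cap, with 418 in the ventral marginal zone and the floor in the vegetal explant. Its relative krt12.4.L had 2423 units in the cap and 270 in the dorsal zone (8.99-fold higher), and krt12.4.S had 184 units in the cap against the floor in the dorsal zone (at least 7.47-fold higher). The copy krt70.L had 1154 units in the cap and 79.7 in the dorsal marginal zone (14.5-fold higher), and krt7.L, a type II keratin, had 2931 in the cap and 383 in the dorsal zone (7.65-fold higher). These genes were at 24.7 to 36.6 units in the vegetal explant. The copy krt70.S was far brighter and less different: its 4 probe sets read 3980 to 15707 units in the cap and 1309 to 8064 in the dorsal marginal zone, and its mean difference was 2.44-fold. The brightest of these probe sets was 1.95-fold higher, so krt70.S falls under 2-fold if that probe set alone is used, with a log2 difference of 0.96. Keratin krt18.1.S, of a pair found in simple epithelia, went the other way, with 461 units in the cap and 1304 in the dorsal marginal zone (2.83-fold lower in the cap), and krt18.1.L had 2446 units in the cap and 4333 in the dorsal zone, a log2 difference of -0.82.

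Other surface and junction genes differed less. The list of keratins and epithelial surface genes had 61 genes on the array and 42 that entered, with 13 higher and 1 lower in the cap and a median of 0.41 (0.26 over all 61). E-cadherin, the adhesion molecule of epithelia, had 446 units in the animal cap and 167 in the dorsal marginal zone as cdh1.S, 2.68-fold higher. The desmosomal protein envoplakin (evpl.L) had 212 units in the cap and 56.3 in the dorsal zone (3.75-fold higher), and plakophilin pkp3.S had 382 in the cap and 162 in the dorsal zone (2.36-fold higher) while its copy pkp3.L had 541 in the cap and 677 in the dorsal zone. Many epithelial genes were bright in both explants without a 2-fold difference, among them cldn4.L, a claudin of tight junctions, with 8186 units in the cap and 4357 in the dorsal zone (log2 0.91), and epcam.S with 5011 in the cap and 4009 in the dorsal zone (log2 0.32). Outside the list, cornifelin (cnfn.1.L), a protein of cornified envelopes in mammals, had 992 units in the cap and 88.1 in the dorsal marginal zone, 11.3-fold higher. The secreted anterior gradient gene ag1.L had 625 units in the cap and 79.5 in the dorsal zone, 7.86-fold higher, and kit ligand kitlg.L had 217 in the cap and 42.1 in the dorsal zone, 5.15-fold higher. The villin-like gene vill.S was at least 6.99-fold higher (173 units in the cap against the floor in the dorsal zone). Other genes among the 15 largest cap-high differences were tmem45b.L at 6.18-fold, klf17.1.S at 5.95-fold and MGC52622 at 5.84-fold.

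BMP ligands and responders did not move as one group. Of 33 listed genes, 18 entered, with 4 higher (22.2%) and 3 lower (16.7%) in the animal cap. Over all entered genes the shares were 2.04% and 3.46%. The list median was 0.41 (0.17 over all 33). The pseudoreceptor bambi, which dampens BMP signalling and is itself switched on by it, had 157 units in the animal cap and 29.5 in the dorsal marginal zone as bambi.L (at least 5.33-fold higher), below the 329 of the ventral marginal zone. The helix-loop-helix inhibitor id2 was higher in the cap in both copies, id2.S with 2157 units in the cap and 761 in the dorsal zone (2.83-fold) and id2.L with 973 in the cap and 433 in the dorsal zone (2.25-fold). The ligand bmp4.S had 741 units in the cap and 364 in the dorsal zone, 2.04-fold higher, and its log2 difference of 1.03 became 0.93 with an offset of 50 units in place of the floor and 0.999 after quantile normalization, both under 2-fold. The ligand bmp7.2.L had 4890 units in the cap and 3564 in the dorsal marginal zone (log2 0.46). Lower in the cap were bmp2.L (71.4 units in the cap against 167 in the dorsal zone, 2.34-fold lower), the homeobox gene ventx2.2.L (112 in the cap against 259 in the dorsal zone, 2.30-fold lower) and the caudal gene cdx1.S (the floor in the cap against 191 in the dorsal zone, at least 7.72-fold lower). The copy bmp2.S was lower too but short of 2-fold (log2 -0.52). The ventral genes szl.L, szl.S, evx1.L and ventx3.2.S were under the entry limit in both explants. All 4 were higher in the ventral marginal zone, at 186 to 580 units.

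Transcription factors of the organizer were lower in the animal cap. The list had 27 genes on the array and 15 that entered. In the cap 14 were lower (93.3%) and 0 higher, against 3.46% and 2.04% of all entered genes. Of those that entered, 5 had a probe set at the floor in the cap, where the entry rule sets the call. The list median was -2.80, or -1.59 over all 27. Goosecoid, a homeobox repressor that marks the organizer, had 51.3 units in the animal cap and 2662 in the dorsal marginal zone as gsc.S, 51.9-fold lower in the cap. The copy gsc.L was at the floor in the cap on both of its probe sets and had 1018 and 3770 units in the dorsal marginal zone, at least 41.2-fold and 153-fold lower. The head homeobox gene otx2.L had 135 units in the cap and 2707 in the dorsal marginal zone on its brighter probe set (20.1-fold lower). On the other it had the floor in the cap against 178 in the dorsal zone (at least 7.22-fold lower), and the mean log2 difference was -3.59. Its relatives crx.L and crx.S had 177 and 159 units in the cap against 1648 and 1110 in the dorsal marginal zone (9.33-fold and 6.99-fold lower). Forkhead gene foxa4.S was at least 29.0-fold lower (the floor in the cap against 715 units in the dorsal zone), and the LIM homeobox gene lhx1.L at least 8.03-fold lower (the floor in the cap against 198 in the dorsal zone). In the ventral marginal zone these genes were under the dorsal values too, with 192 units for gsc.S, 131 for crx.L and 98.7 for lhx1.L, while the vegetal explant had 2594 units for gsc.S, 821 for crx.L and 117 for lhx1.L.

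Secreted and surface products of the organizer were mostly lower in the cap. On the array were 21 listed genes, of which 15 entered. In the cap 12 were lower (80%) and 0 higher, against 3.46% and 2.04% of all entered genes. Of those that entered, 7 had a probe set at the floor in the cap, where the entry rule sets the call. The median was -3.57 (-2.14 over all 21). Chordin, the organizer's secreted BMP antagonist, was at the floor in the cap on both chrd.1.S probe sets, which had 855 and 3523 units in the dorsal marginal zone, so that it was at least 34.6-fold and 143-fold lower. The BMP-type ligand admp.S had 30.2 units on one probe set in the cap, 30.9-fold below the 932 of the dorsal marginal zone, and the floor on its other one. Both BMP regulators were low in the ventral marginal zone too, where chrd.1.S was at the floor and admp.S had 41.3 units.

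The Wnt antagonist frzb was lower in the cap in both copies, frzb.S with the floor in the cap against 4852 units in the dorsal zone (at least 196-fold) and frzb.L with the floor in the cap against 1629 in the dorsal zone (at least 66.0-fold). Its values were higher still in the vegetal explant, with 9248 units for frzb.S and 2177 for frzb.L. In the ventral marginal zone frzb.S had 3625 units and frzb.L 206, so frzb.S was not particular to the dorsal side. Cerberus (cer1.S), which binds nodal, BMP and Wnt ligands, had 24.7 units in the cap, just above the floor, and 2236 in the dorsal marginal zone, at least 90.4-fold lower in the cap. The cer1.S signal was 447 units in the ventral marginal zone and 2740 in the vegetal explant. The Wnt antagonist dkk1.S had 27.2 in the cap and 322 in the dorsal zone, at least 11.9-fold lower. Nodal3.1.L, a divergent nodal ligand of the organizer, had the floor in the cap against 1626 units in the dorsal marginal zone (at least 65.9-fold lower), with 40.1 on the ventral side. Protocadherin pcdh8.2.L, a cell surface protein of involuting mesoderm, had 26.1 units in the cap and 5307 in the dorsal marginal zone, at least 203-fold lower, with 3619 in the ventral marginal zone. The secreted Frizzled-related gene sfrp2.S did not differ 2-fold, with 6211 units in the cap and 5864 in the dorsal zone (log2 0.08).

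Mesoderm genes shared by dorsal and ventral sides were low in the cap as well. Of 32 mesoderm transcription factors on the array 14 entered (median -3.16, or -1.35 over all 32). In the cap 13 were lower (92.9%) and 0 higher, against 3.46% and 2.04% of all entered genes. Of those that entered, 7 had a probe set at the floor in the cap, where the entry rule sets the call. The T-box genes, which start mesoderm formation, were among the clearest cases: eomes.L had 114 units in the animal cap and 3374 in the dorsal marginal zone (29.5-fold lower). Maternal and zygotic vegt.L had 349 in the cap and 7351 in the dorsal zone (21.0-fold lower), and brachyury (tbxt.S) had the floor in the cap against 676 in the dorsal zone (at least 27.4-fold lower). In the ventral marginal zone eomes.L had 1860 units, vegt.L 6574 and tbxt.S 886, so that all 3 were far above the cap on both sides of the belt. The myogenic gene myf5.L was different, with the floor in the cap against 325 units in the dorsal marginal zone (at least 13.2-fold lower) and only 47.6 on the ventral side, and msgn1.L, a presomitic factor, had the floor in the cap against 161 units in the dorsal marginal zone (at least 6.53-fold lower) and 980 on the ventral side. The zinc finger repressor snai1.S, known from cell ingression, had 46.1 units in the cap and 474 in the dorsal marginal zone, 10.3-fold lower.

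Of 30 mesoderm ligands and receptors on the array 18 entered (median -3.05, or -0.54 over all 30). In the cap 12 were lower (66.7%) and 1 higher (5.56%), against 3.46% and 2.04% of all entered genes. Of those that entered, 6 had a probe set at the floor in the cap, where the entry rule sets the call. The Wnt ligand wnt8a.L had the floor in the animal cap and 717 units in the dorsal marginal zone (at least 29.0-fold lower), with 2416 in the ventral one, and wnt11b.L had 95.1 units in the cap and 1132 in the dorsal zone (11.9-fold lower). The FGF ligands followed: fgf8.L had 277 units in the cap and 4130 in the dorsal marginal zone on its brightest probe set (14.9-fold lower). On its other entered one it had the floor in the cap against 149 in the dorsal zone (at least 6.05-fold lower), and over both it was at least 9.49-fold lower. The ligand fgf20.L had the floor in the cap against 412 in the dorsal zone (at least 16.7-fold lower). Receptors were split. The apelin receptor was lower in the cap in both copies, aplnr.L with 87.6 units in the cap and 633 in the dorsal zone (7.23-fold) and aplnr.S with 33.0 in the cap and 313 in the dorsal zone (9.48-fold), and the PDGF receptor pdgfra.L had the floor in the cap against 353 in the dorsal zone (at least 14.3-fold). The FGF receptors fgfr1.L, fgfr2.L, fgfr4.L and fgfr4.S, in contrast, differed by only -0.41 to 0.36 on the log2 scale. The chemokine receptor cxcr4.S had 717 units in the cap and 1649 in the dorsal zone (2.30-fold lower) while cxcr4.L had 2881 in the cap and 3119 in the dorsal zone.

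Endoderm factors formed the list with the most genes lower in the cap. Of 31 on the array 25 entered. In the cap 24 were lower (96%) and 0 higher, against 3.46% and 2.04% of all entered genes. Of those that entered, 14 had a probe set at the floor in the cap, where the entry rule sets the call. The median was -3.83 (-3.35 over all 31). That median depends on the floor: it was -4.71 with the floor at the 10th percentile and -3.11 with the floor at the 30th. The HMG-box factor sox17, which commits cells to endoderm, had the floor and 26.6 units in the cap against 1244 and 990 in the dorsal marginal zone on the 2 probe sets of sox17b.1.S, at least 50.4-fold lower on the first and at least 37.2-fold on the other. The zinc finger gene gata6.L had 28.6 units in the cap and 2204 in the dorsal marginal zone (at least 77.0-fold lower). Its relative gata5.S had 29.1 in the cap and 230 in the dorsal zone (at least 7.90-fold lower), and gata4.L had the floor in the cap against 255 in the dorsal zone (at least 10.3-fold lower). The odd-skipped gene osr1.L had 27.3 units in the cap and 719 in the dorsal zone (at least 26.3-fold lower), and the paired-like homeobox gene mix1.L had 25.2 in the cap and 509 in the dorsal zone (at least 20.2-fold lower). All of these were higher in the vegetal explant than in the dorsal marginal zone, with 7027 units for gata6.L, 2478 for gata5.S, 1448 for gata4.L, 2527 for osr1.L and 886 for mix1.L. Alpha-2-macroglobulin (a2m.S), a protease inhibitor, had 211 units in the cap against 3391 in the dorsal marginal zone (16.1-fold lower), and 3741 in the vegetal explant. The gene xenf.L had the floor in the cap and 1279 units in the dorsal marginal zone, at least 51.8-fold lower.

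Within the nodal pathway ligands differed 2-fold, and the Smads and the co-receptor did not. The list had 27 genes on the array and 17 that entered, with a median of -0.18 (-0.08 over all 27). In the cap 1 was higher (5.88%) and 5 lower (29.4%), against 2.04% and 3.46% of all entered genes. For 2 of the entered genes a probe set lay at the floor in the cap, where the entry rule sets the call. The TGF-beta ligands gdf3.S and gdf1.S had 33.0 and 41.8 units in the animal cap against 2085 and 234 in the dorsal marginal zone (63.1-fold and 5.61-fold lower). The ligand nodal2.L had the floor in the cap against 420 in the dorsal zone (at least 17-fold lower). The TGF-beta family type I receptor acvr1.L had 1680 units in the cap and 4161 in the dorsal zone (2.48-fold lower). Its copy acvr1.S was lower too but short of 2-fold (log2 -0.92). By contrast, the co-receptor tdgf1.3.L had 10096 units in the cap and 9617 in the dorsal marginal zone (log2 0.07), the receptor acvr2b.S had 1798 in the cap and 2031 in the dorsal zone (log2 -0.18), smad2.L had 634 in the cap and 536 in the dorsal zone (log2 0.24) and smad4.L had 1731 in the cap and 1957 in the dorsal zone (log2 -0.18). The member higher in the cap was dand5.S, a secreted antagonist of nodal of the cerberus family, with 1418 units in the cap against 375 in the dorsal marginal zone (3.78-fold higher), and 413 on the ventral side.

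Of 20 germ plasm and vegetally localised maternal RNAs on the array 13 entered. In the cap 8 were lower (61.5%) and 0 higher, against 3.46% and 2.04% of all entered genes, and 5 differed by less than 2-fold. For 1 of the entered genes a probe set lay at the floor in the cap, where the entry rule sets the call. The median was -1.15 (-0.63 over all 20). The list shared 2 genes each with the mesoderm and endoderm factors, and also genes of the neural, nodal and Wnt lists. Its lowest member was vegt.L, so the 8 are not all germ plasm RNAs. The germ plasm RNA pgat.L had 30.6 units in the animal cap against 197 in the dorsal marginal zone (6.46-fold lower), and 8243 in the vegetal explant. The RNA-binding gene dazl.L had 36.3 in the cap against 162 in the dorsal marginal zone (4.47-fold lower), and 4242 in the vegetal explant, and the helicase gene ddx25.L had 76.4 in the cap against 163 in the dorsal marginal zone (2.13-fold lower), and 6178 in the vegetal explant. The call of ddx25.L did not hold after quantile normalization, where its log2 difference was -0.98, nor with the offset, where it was -0.75. The marker germes.L had 32.6 units in the cap and 38.8 in the dorsal zone, and grip2.L was at the floor in both.

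**Figure D4:**
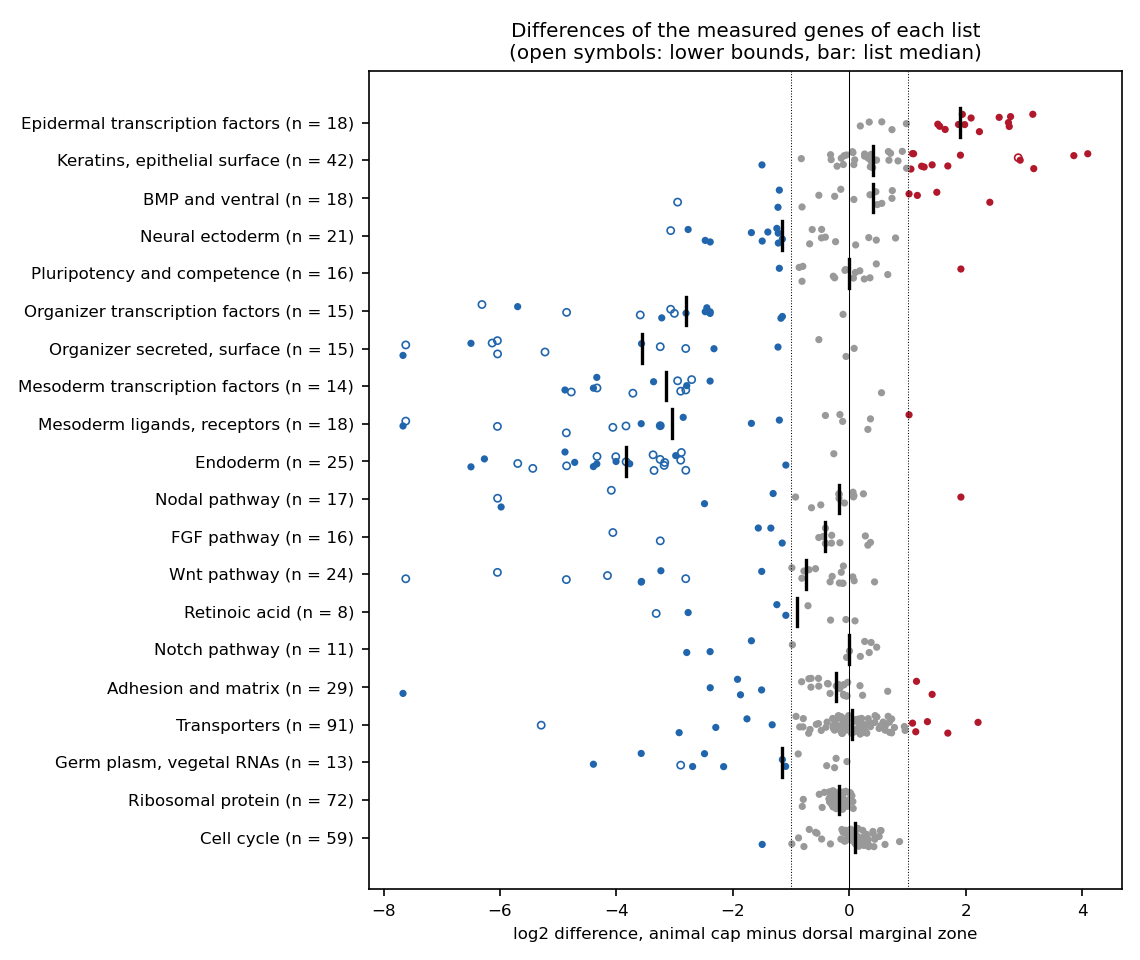
Difference in log2 signal, animal cap minus dorsal marginal zone, of every entered gene of 20 gene lists (n beside each name); black bars are list medians, open symbols have a side at the floor and dotted lines mark 2-fold. Organizer, mesoderm and endoderm lists lie to the left with medians of -2.80 to -3.83, epidermal transcription factors to the right with 1.91, and ribosomal and cell cycle genes lie near 0.

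Some neural genes had like levels in both explants and others were lower in the cap. On the array were 35 listed genes, of which 21 entered, with a median of -1.15 (-0.48 over all 35). In the cap 11 were lower (52.4%) and 0 higher, against 3.46% and 2.04% of all entered genes. For 1 of the entered genes a probe set lay at the floor in the cap, where the entry rule sets the call. The SoxB1 gene sox2.L, a marker of neural competence, had 441 units in the animal cap and 409 in the dorsal marginal zone (log2 0.11). Its relative sox3.S had 3017 in the cap and 2188 in the dorsal zone (log2 0.46), and sox11.S had 7744 in the cap and 9120 in the dorsal zone (log2 -0.24). These pan-neural Sox genes therefore differed by less than 2-fold. Genes lower in the cap included the forkhead gene foxd4l1.1.S, an early neural factor, with 446 units in the cap and 2480 in the dorsal marginal zone (5.56-fold lower). The Iroquois gene irx3.L had 36.6 units in the cap and 192 in the dorsal zone (5.24-fold lower). The zinc finger gene zic2.L had 564 in the cap and 1312 in the dorsal zone (2.33-fold lower). Geminin, a licensing inhibitor with a role in early neural cells, had 1371 in the cap and 3867 in the dorsal zone as gmnn.L (2.82-fold lower) but 4026 in the cap and 5599 in the dorsal zone as gmnn.S. In the ventral marginal zone foxd4l1.1.S had 349 units and zic2.L 636, close to the cap. The list shared 6 genes with the organizer factors, so these counts are not separate from the ones above.

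In the Wnt pathway 24 of 56 listed genes entered (median -0.74, or -0.12 over all 56). In 5 of the entered genes a probe set lay at the floor in the cap, where the entry rule sets the call. Against 3.46% and 2.04% of all entered genes, 9 were lower in the cap (37.5%) and 0 higher. Besides the frzb copies, dkk1.S, wnt8a.L and wnt11b.L, these were frzb2.L (the floor in the cap against 173 units in the dorsal zone, at least 7.01-fold lower), sfrp1.L (33.0 in the cap against 311 in the dorsal zone, 9.42-fold lower), the receptor ror2.L (the floor in the cap against 440 in the dorsal zone, at least 17.8-fold lower) and fzd8.S. The 2 probe sets of the Frizzled receptor fzd8.S disagreed, with 251 units in the cap and 1662 in the dorsal zone on one, and 320 in the cap and 389 in the dorsal zone on the other. Transducers differed by less than 2-fold: ctnnb1.L, beta-catenin, had 8741 units in the cap and 9378 in the dorsal marginal zone, tcf7l1.L had 1839 in the cap and 1981 in the dorsal zone, and dvl2.L had 383 in the cap and 367 in the dorsal zone.

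Of 24 FGF pathway genes 16 entered (median -0.41, or -0.36 over all 24). In 2 of the entered genes a probe set lay at the floor in the cap, where the entry rule sets the call. Against 3.46% and 2.04% of all entered genes, 5 were lower in the cap (31.25%) and 0 higher. Beside the ligands, these were rasl11b.L (178 units in the cap and 454 in the dorsal marginal zone, 2.54-fold lower), the phosphatase gene dusp1.S (143 in the cap and 317 in the dorsal zone, 2.22-fold lower) and myc.S (2.96-fold lower over its probe sets, and log2 -0.81 on the brightest). The copies dusp1.L and myc.L were short of 2-fold (log2 -0.30 and -0.52). The ETS effector etv4.L had 2262 units in the cap and 3086 in the dorsal zone (log2 -0.45). The immediate early gene egr1.L had 3854 in the cap and 5120 in the dorsal zone (log2 -0.41). In the retinoic acid list 8 of 19 genes entered (median -0.90, or 0 over all 19). Against 3.46% of all entered genes, 4 were lower in the cap (50%). They span synthesis and breakdown: aldh1a2.L, the synthetic enzyme, had 159 units in the cap and 1146 in the dorsal zone on its brighter probe set (7.19-fold lower) and the floor in the cap against 341 in the dorsal zone on the other (at least 13.8-fold lower). The degrading enzyme cyp26a1.L had 63.0 in the cap and 430 in the dorsal zone (6.81-fold lower), cyp26a1.S had 196 in the cap and 464 in the dorsal zone (2.37-fold lower), and the reductase dhrs3.L had 468 in the cap and 996 in the dorsal zone (2.13-fold lower). The receptor rarg.S had 1449 units in the cap and 1355 in the dorsal zone (log2 0.10). Of 21 Notch pathway genes 11 entered and 3 were lower in the cap (27.3%, against 3.46% of all entered genes). The ligand dll1.L had 124 units in the cap and 397 in the dorsal zone (3.21-fold lower). The others were the hairy-type repressors hes7.1.L (85.3 in the cap and 447 in the dorsal zone, 5.25-fold lower) and hes7.2.L (100.3 in the cap and 695 in the dorsal zone, 6.93-fold lower). This list left out the enhancer-of-split-related gene esr-5.L, named here after its value was seen. It had 282 units in the cap and 1604 in the dorsal zone (5.68-fold lower). The receptor notch1.S had 2381 units in the cap and 2459 in the dorsal zone.

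The cadherins cdh1.S and cdh2 differed in opposite directions, and cdh3 differed by less than 2-fold. Of 98 cadherin, integrin, Eph and matrix genes 29 entered, 2 higher (6.90%) and 5 lower (17.2%) in the cap, against 2.04% and 3.46% of all entered genes, with a median of -0.22 (0 over all 98). N-cadherin was lower in the cap in both copies, cdh2.L with 29.0 units in the animal cap and 152 in the dorsal marginal zone (at least 5.24-fold) and cdh2.S with 68.4 in the cap and 250 in the dorsal zone (3.65-fold), opposite to cdh1.S. The Eph receptor epha4.L had 169 units in the cap and 641 in the dorsal zone (3.78-fold lower). The membrane protease mmp14.L had 62.4 in the cap and 177 in the dorsal zone (2.84-fold lower), whereas the ephrin efna4.L had 4907 in the cap and 2205 in the dorsal zone (2.23-fold higher). Fibronectin (fn1.S) had 4389 units in the cap and 5520 in the dorsal zone, the integrin itgb1.L 731 in the cap and 832 in the dorsal zone, and cdh3.S, a maternal cadherin, 1654 in the cap and 1775 in the dorsal zone, all under 2-fold. The list left out the matrix genes vcan.L and fbln1.L, named here after their values were seen. The gene vcan.L had 27.7 units in the cap and 243 in the dorsal zone (at least 8.76-fold lower). For fbln1.L it was the floor in the cap against 160 in the dorsal zone (at least 6.50-fold lower).

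Of 170 transporter genes 91 entered, 5 higher and 5 lower in the cap (5.49% each way, against 2.04% and 3.46% of all entered genes), with a median of 0.04 (0 over all 170). The organic cation carrier slc22a4.L had 1521 units in the animal cap and 328 in the dorsal marginal zone (4.63-fold higher). The sodium pump subunit atp1b2.L had 2648 in the cap and 820 in the dorsal zone (3.23-fold higher) and the glucose carrier slc2a2.L had 1060 in the cap and 418 in the dorsal zone (2.53-fold higher). Lower in the cap were the monocarboxylate carrier slc5a8.1.L (the floor in the cap against 967 units in the dorsal zone, at least 39.2-fold), the potassium channel kcnk6.L (27.1 in the cap against 205 in the dorsal zone, at least 7.58-fold) and the amino acid carrier slc38a2.L (610 in the cap against 2992 in the dorsal zone, 4.90-fold). The glucose carrier slc2a1.L is uncertain, since one probe set read 433 units in the cap and 293 in the dorsal marginal zone and the other 67.2 in the cap and 1135 in the dorsal zone.

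Most housekeeping and pluripotency genes differed by less than 2-fold. Of 74 ribosomal protein genes 72 entered and 0 reached 2-fold either way, with differences from -0.81 (rpl28.L) to 0.07 and a median of -0.17, and that median stayed below 0 in each processing alternative tried (-0.18 to -0.09). Of 67 cell cycle genes 59 entered, with 1 lower, gmnn.L (1.69%, against 3.46% of all entered genes), and a median of 0.10. The list left out the replication gene mcm6.2.S, with 94.2 units in the cap and 191 in the dorsal marginal zone (2.03-fold lower). Its copy mcm6.2.L was short of 2-fold (log2 -0.38). The cyclin ccnd1.S, with 344 units in the cap and 682 in the dorsal marginal zone, was just short of 2-fold (log2 -0.99). Pluripotency and competence factors gave 1 higher (dand5.S) and 1 lower (ventx2.2.L) among 16 that entered of 21. That is 6.25% each way, against 2.04% and 3.46% of all entered genes, and both genes are also counted in lists above. The median was 0.002, and -0.08 to 0.12 under the alternatives. The Oct-type factors pou5f3.1.L, pou5f3.2.L and pou5f3.3.L had log2 differences of -0.27, 0.10 and 0.26, and pou5f3.2.L was bright in both explants, with 7908 units in the cap and 7354 in the dorsal marginal zone.

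Other genes among the 15 largest cap-low differences came from outside the lists or had no settled group. Connexin gjb2.L, a gap junction channel, had 92.7 units in the animal cap and 4145 in the dorsal marginal zone (44.7-fold lower), with 1243 in the ventral marginal zone. The acetyltransferase-like gene nat8.6.S had 24.8 units in the cap and 1232 in the dorsal zone (at least 49.7-fold lower). Purine nucleoside phosphorylase pnp.L had 91.3 units in the cap and 1865 in the dorsal zone (20.4-fold lower) with 315 in the ventral marginal zone and 42.6 in the vegetal explant, so that it was highest in the dorsal marginal zone of the 4 arrays. The secreted gene pnhd.L (pinhead) had 39.6 units in the cap and 821 in the dorsal zone (20.7-fold lower) and was higher, 1449 and 1725, in the ventral marginal zone and the vegetal explant. The death domain receptor-like gene nradd.L had 174 units in the cap and 2428 in the dorsal zone (13.9-fold lower), and menf.1.L had the floor in the cap against 987 in the dorsal zone (at least 40.0-fold lower).

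In all, 59 of the 95 cap-high genes and 68 of the 161 cap-low genes were in none of the 20 lists. Some of these were chosen for naming after their values were seen. The zinc finger gene znf750, an epidermal differentiation factor in human skin, was higher in the animal cap in both copies: znf750.L had 526 units in the cap and 190 in the dorsal marginal zone (2.76-fold) and znf750.S had 584 in the cap and 225 in the dorsal zone (2.59-fold). The epithelial splicing regulator esrp1.L had 1534 units in the cap and 430 in the dorsal zone (3.56-fold higher) and the tripartite motif gene trim29.L 385 in the cap and 84.7 in the dorsal zone (4.55-fold higher). Lower in the cap was the planar polarity gene prickle1.S, with 743 units in the cap and 2030 in the dorsal zone (2.73-fold). Its copy prickle1.L was short of 2-fold (log2 -0.53). The gene shisa1.1.L, of a family that holds back Wnt and FGF receptors, had 369 in the cap and 1097 in the dorsal zone (2.98-fold lower).

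The smallest differences counted were close to those left out. Just inside the limit, nsmce4a.L, tob1.S and ccdc77.L had log2 differences of 1.002 to 1.005, and nsmce4a.L had 510 units in the animal cap and 255 in the dorsal marginal zone. The 3 probe sets just outside, which have no single symbol, had 0.989 to 0.994. On the other side 3 unnamed probe sets had -1.012 to -1.009, while tmem221.S, with 142 units in the cap and 284 in the dorsal zone, and actn1.L, with 85.8 in the cap and 171 in the dorsal zone, stood just outside at -0.999 and -0.995.

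Agreement within the arrays gave a measure of the spread between probe sets, and no error for a difference between the explants. For 632 genes with 2 or more entered probe sets, the differences given by the 2 brightest probe sets of a gene differed with an SD of 0.50 on the log2 scale and by a median of 0.19. Of the 52 with a 2-fold call on either probe set, 48 had the same sign on both, 20 were called the same way on both and 0 were called opposite ways. The SD pools all 632 genes, and 32 of the 52 were called on 1 probe set only, so it does not measure how secure a single call is. A 2-fold difference is about 2 times this pooled spread, and those of krt12.5.S, gsc.S or sox17b.1.S are several times larger. Of these, krt12.5.S and gsc.S entered with 1 probe set each and have no spread of their own. Agreement between probe sets covers the probes only, not dissections, embryos or amplification. The .L and .S copies of 544 genes were compared in the same way, and the SD was 0.48. Of 41 pairs with a call, 35 had the same sign, 19 were called the same way in both copies, such as dlx3, frzb, crx and vegt, and 0 were called opposite ways. The pairs farthest apart, chosen after their values were seen, included rfk, with a log2 difference of 0.76 for rfk.L and -3.01 for rfk.S, and ckap4, with -0.12 for ckap4.L and 2.04 for ckap4.S. The .L copies made up 65.2% of the cap-high genes with a suffix, 68.6% of the cap-low ones and 58.3% of all entered genes.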

How the data were processed

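The deposited values are linear intensity signals of 15611 probe sets per array; the summarisation software is not given in the sources used here. The trimmed mean (lowest and highest 2% left out) was 500.1 units on both arrays, so the authors' intensity values carry a scaling of each array, as read from the values, and the number of arrays limits the precision. Total RNA was amplified and biotin-labelled, per the labels' protocols, and samples were grouped by title. The 120 control probe sets were left out, signals were floored at 24.7 and put on the log2 scale, and the difference is animal cap minus dorsal marginal zone.

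Names came from the platform annotation: 9304 probe sets had 1 symbol, 195 several and 5992 none, and 9227 identifiers matched RefSeq (Xenopus_laevis_v10.1). A gene's value is the mean log2 signal of its entered probe sets. Genes were named by rule: the 15 largest differences each way above the floor, up to 10 lower bounds each way, members of the 20 lists that reached 2-fold or were among the 4 largest of a list, markers, other copies and probe sets, and the 3 probe sets on each side of each limit. List members named with values under 2-fold outside that rule were chosen after their values were seen. The members and lists were chosen with earlier results of these data known. Lists share genes. After values were seen, S6 kinase genes were taken out of the ribosomal list, 1 of which, rps6kb1.L, was 2.21-fold higher in the cap. Alternatives changed the floor, filter, scaling, offset and probe set choice. Python 3.11.15, numpy 2.4.6 and pandas 2.3.3 were used, and the steps were tested on simulated data.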

Additional observations from a re-analysis of the deposited data

How the results depend on the processing

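With 1 array per explant, a difference may come from a single dissection or amplification. Without the filter on low signals, 371 probe sets were 2-fold or more higher and 576 lower in the animal cap (156 and 270 genes). With the filter at the 75th percentile these counts were 77 and 111 (44 and 73 genes). The numbers of probe sets that entered were 15491 and 4141, against 8118 as reported, so these counts have unlike bases. Dim probe sets also differed 2-fold more often than bright ones, as given above. Floors at the 10th or 30th percentile left the counts at 183 and 293, as reported. An entered probe set with 1 side at the reported floor is already at least 5.96-fold apart. The unchanged counts are therefore no check on the choice of floor. Of 162 other values, however, 37 and 51 moved farther than the probe set SD, list medians among them. At the lower floor organizer secreted genes had -4.35, mesoderm factors -4.34 and endoderm factors -4.71, against -3.57, -3.16 and -3.83 as reported. Centring each array on its median gave 230 and 274, and cap-high probe sets then made up 45.6% of the calls, against 38.4% as reported; the median difference became 0.10. Quantile normalization gave 190 and 277, scaling to hybridisation controls 199 and 280, and an offset of 50 units 123 and 236. Of 1217 recomputed values of 142 named genes that reached 2-fold, 185 moved farther than the probe set SD and 0 changed sign. Under 2-fold were cdh2.L and gprc5cl2.S without the filter, zic2.S at the stricter filter, bmp4.S and ddx25.L after quantile normalization, krt70.S, myc.S and zic2.S on the brightest probe set, and 8 genes with the offset: atp6v1al.L, bmp2.L, bmp4.S, ddx25.L, dusp1.S, elf1.S, slc17a9.L and ventx2.2.L. At the stricter filter 81 of the 142 entered. No paired analysis was possible because each explant has 1 array and no result comes from a test. The promoter motif step was not run because no promoter sequences were used here.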

Other observations

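Genes outside the lists, picked after their values were seen and so given as values only, included several enzymes of cell surface sugars and lipids that were higher in the animal cap. The glycosyltransferase genes b3gnt3.2.L, with 657 units in the animal cap and 171 in the dorsal marginal zone, and b3gnt2.S, with 344 in the cap and 138 in the dorsal zone, were 3.84-fold and 2.49-fold higher. The fucosyltransferase fut1.S had 495 units in the cap and 136 in the dorsal zone (3.63-fold higher) and the heparan sulfate sulfotransferase hs3st1.L had 545 in the cap and 142 in the dorsal zone (3.83-fold higher). Of sphingolipid enzymes, the desaturase degs3.L had 451 units in the cap and 132 in the dorsal zone (3.42-fold higher) and sptlc2.S, a subunit of serine palmitoyltransferase, had 426 in the cap and 183 in the dorsal zone (2.33-fold higher). In the vegetal explant fut1.S had 30.3 units and degs3.L was at the floor, whereas b3gnt3.2.L had 458 and sptlc2.S 243.

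Genes of the cytoskeleton and membrane, picked in the same way, differed in both directions. The tropomyosin tpm1.L had 231 units in the cap and 72.1 in the dorsal zone (log2 1.68). Higher too, beside the villin-like gene vill.S given above, was cyfip2.S, with 356 in the cap and 169 in the dorsal zone (log2 1.07). Also higher was pacsin2.S, with 163 in the cap and 81.1 in the dorsal zone (2.01-fold). The copy pacsin2.L was short of 2-fold (log2 0.74). The Cdc42 effector genes cdc42ep2.L and cdc42ep4.S had 320 and 87.7 units in the animal cap against 825 and 250 in the dorsal marginal zone, 2.58-fold and 2.85-fold lower. The endocytic adaptor epn2.L had 457 units in the cap and 1556 in the dorsal zone (3.41-fold lower) and the kinase anchor akap12.L had 53.0 in the cap and 238 in the dorsal zone (4.49-fold lower). In the ventral marginal zone all 4 of these cap-low genes were also above the cap, cdc42ep2.L with 877 units, cdc42ep4.S with 266, epn2.L with 1144 and akap12.L with 131.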
